A study of Mus musculus with 3 samples.

Results

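Interferon-stimulated genes are genes whose transcription rises when a cell senses interferon. The 34 genes described here were taken by name from a list that held the IFIT proteins, the ISG15 system, 2′-5′-oligoadenylate synthetase genes, interferon-inducible GTPases, nucleic acid sensors, transcription factors, membrane restriction factors and the chemokine Cxcl10. All 34 had a row in each of the 3 count files, among 15635 genes found in any of them. They were read in cells with over 200 and up to 8000 genes and with up to 10% mitochondrial UMIs, where a UMI (unique molecular identifier) is the tag that counts 1 captured transcript. The genes were split by how many microglia carried them, and their cell class and library differences are given for each of these groups.

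Brain microglia from mice of 8 weeks were sequenced, with 1 library for each of 3 genotypes. The labels give control mice as Wild type and do not say whether these carried Cre. The hCD33M library came from mice that expressed the long isoform of human CD33, and the hCD33m library from mice that expressed the short isoform, which lacks the ligand-binding domain. According to the study's methods, each transgene sat in the Rosa26 locus behind a floxed stop cassette, was switched on by Cre expressed from Cx3cr1 and so in the microglial lineage, and the hCD33m line came from targeted embryonic stem cells. All mice were of the C57BL/6 strain. Cells of a pair of mice were pooled for each genotype, kept cold with inhibitors of transcription and translation, and sorted as CD11b+, CD45 low and Cx3cr1+. With 1 pool per genotype there was no replicate, so no test of the genotypes was made and no p is given, and mouse, library and genotype cannot be told apart. Intervals below are at 95% and cover counting error only, and those of CPM ratios take each UMI as independent.

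Type I interferons are secreted cytokines that bind the Ifnar1 and Ifnar2 receptor chains, whose kinases Jak1 and Tyk2 activate transcription factors, among them Stat2. With Irf9 these bind interferon-stimulated response elements in promoters, and the induced proteins sense or degrade foreign RNA and block viral entry and budding. In the healthy brain a low tone of this pathway is a known feature of microglia, and a small set of interferon-responsive microglia with high levels of these genes has been described in several mouse models.

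The response element at these promoters can be read directly. RefSeq (GRCm38.p6) gave a promoter window for 26 of the 34 genes, from 250 bases before to 50 bases after the transcript start, and the letters GAAANNGAAA, a core of the response element, were searched on both strands. They stood in the windows of 17 of the 26 genes (65.4%), against 1079 of all 27025 genes with a window (3.99%). At least 2 matches stood in the windows of 8 of the 26 (30.8%), against 72 of 27025 (0.266%). The share was 1 of 1 for the gene found in most microglia, 6 of 11 for genes of intermediate breadth and 10 of 14 for sparse genes (groups defined below), and a match is a description of the letters, not proof of a bound site. The windows of Ifit2, Oasl1, Oasl2, Irf7, Irf9, Xaf1, Ifi35, Herc6 and Slfn2 held no match. No window was given for Parp14, Zbp1, Iigp1, Rtp4, Ifi27l2a, Ifi204, Usp18 and Dhx58.

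Stretches of 80 bases upstream of the start are printed for some genes that held a match and on which the results below turn. They are Bst2, found in most microglia, Isg15, the sparse genes Ifit1, Ifit3, Rsad2 and Cxcl10, and Oas1a, which differed between libraries. Genes without a match, among them Ifit2 and Oasl1, are not printed. Each runs 5′ to 3′ on the gene's strand, capitals mark every match of GAAANNGAAA or of its reverse complement, and positions count back from -1, the base before the start. The Ifit3b stretch (chr19:34607751-34607830, plus strand) had the same letters as that of its neighbour Ifit3.
Bst2, chr8:71537555-71537634, minus strand, -162 to -83: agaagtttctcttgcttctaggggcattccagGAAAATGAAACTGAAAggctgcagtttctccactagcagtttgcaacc
Isg15, chr4:156200846-156200925, minus strand, -107 to -28: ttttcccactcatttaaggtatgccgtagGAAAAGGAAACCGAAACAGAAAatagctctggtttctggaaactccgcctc
Ifit1, chr19:34640759-34640838, plus strand, -130 to -51: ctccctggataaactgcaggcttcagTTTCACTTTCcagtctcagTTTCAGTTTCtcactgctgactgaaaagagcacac
Ifit3, chr19:34583355-34583434, plus strand, -174 to -95: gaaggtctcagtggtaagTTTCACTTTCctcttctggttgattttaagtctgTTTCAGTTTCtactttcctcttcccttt
Rsad2, chr12:26456528-26456607, minus strand, -155 to -76: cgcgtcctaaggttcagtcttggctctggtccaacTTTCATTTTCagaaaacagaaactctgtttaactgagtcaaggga
Cxcl10, chr5:92349058-92349137, minus strand, -248 to -169: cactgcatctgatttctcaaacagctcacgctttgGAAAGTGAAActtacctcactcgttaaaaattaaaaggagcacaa
Oas1a, chr5:120907526-120907605, minus strand, -80 to -1: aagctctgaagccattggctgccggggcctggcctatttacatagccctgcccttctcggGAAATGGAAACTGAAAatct

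Several members are neighbours. On the same assembly Ifit2, Ifit3, Ifit3b and Ifit1 lie in that order on chromosome 19, from 34550694 to 34650009, and Gbp7, Gbp3 and Gbp2 lie on chromosome 3, from 142530342 to 142638008. Oasl1, Oasl2, Oas1a and Cxcl10 share chromosome 5, with Oasl2 and Oasl1 between 114896936 and 114937915. Among the printed promoters, Isg15 held 3 overlapping matches in a row, Bst2 and Oas1a held 2 overlapping matches each, and Ifit1 and Ifit3 held 2 separate ones on the opposite strand. Cxcl10 and Rsad2 held 1 each. The letters TTCNNNGAA, a core of the gamma-activated site, stood in the windows of 6 of the 26 genes (23.1%), against 9.55% of all genes. In Bst2 this match (-136 to -128) overlapped a response element match (-130 to -121).

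After the filter 5891 control, 5710 hCD33M and 6068 hCD33m cells were kept, from files of 32272657 to 40629705 UMIs. Clustering, in which the interferon genes were not used to choose variable genes, gave 12208 microglia-like cells in 6 clusters, 84 monocyte-like cells, 204 border associated macrophage-like cells and 5173 cells left unnamed, which had a median of 1149 UMIs against 5471 in microglia-like cells. Microglia-like cells held 3439 CPM (UMIs of a gene per 1000000 UMIs of the cells summed) of P2ry12 and 0.0971 CPM of the monocyte gene Ly6c2, while border associated macrophage-like cells held 1050.5 CPM of Mrc1 but also 2252 CPM of P2ry12. Pairs of libraries shared 4, 12 and 9 cell barcodes. The hCD33m library is labelled female while the study states male mice, and all 3 libraries held 94.9 to 105 CPM of the Y-linked Ddx3y and at most 3 UMIs of Xist. Levels of the early response genes Fos (56.2, 244 and 517 CPM) and Jun (1029, 1841 and 2401 CPM in control, hCD33M and hCD33m) differed between the microglia-like cells of the libraries, and their part in the results below was not tested.

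Bst2 was the only one of the 34 genes found in most microglia. The gene encodes tetherin, a membrane protein that holds budding virus on the cell surface, and it had 181, 181 and 156 CPM in the microglia-like cells of control, hCD33M and hCD33m. A Bst2 UMI was found in 61.5%, 62.4% and 56.5% of these cells, over the limit of 50% in every library that was set for a widespread gene. Another 15 genes were intermediate, and 18 were sparse, with a UMI in under 10% of microglia-like cells in every library. No cell class here is known to lack these genes, so no background share from free RNA could be set beside these values.

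Of the intermediate genes, Trim30a, a ubiquitin ligase family member that dampens inflammatory signalling, came nearest to the limit with 44.3%, 49.1% and 47.4% of cells at 111, 124 and 119 CPM. It was followed by Gbp7, a guanylate-binding GTPase (39.1%, 43.0% and 35.9%), by the ADP-ribosyltransferase gene Parp14 (33.5%, 35.5% and 31.6%), and by Irf9, the DNA-binding part of the interferon-activated complex (28.8%, 30.5% and 27.6%). The other intermediate genes were Ifi35, Herc6 (the ligase that attaches Isg15 in mice), Slfn2, Xaf1, the RNA sensor genes Ddx58 (RIG-I) and Ifih1 (MDA5), Ifi27l2a, Stat2, Rtp4, Ifi204 and Isg15. At the lower limit, Isg15 was in 8.59%, 10.3% and 8.06% of cells and Ifi204 in 10.2%, 10.7% and 7.77%, just inside the intermediate group, while Ifitm3 lay just outside with 9.94%, 8.996% and 8.43%.

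The sparse genes were the IFIT genes Ifit1, Ifit2, Ifit3 and Ifit3b, whose proteins bind foreign RNA, the oligoadenylate synthetase family genes Oas1a, Oasl1 and Oasl2, the radical enzyme gene Rsad2 (viperin), Ifitm3, Usp18 (the protease that removes Isg15 and restrains the receptor), Irf7, the GTPase genes Gbp2, Gbp3 and Iigp1, Zbp1 (a sensor of Z-form nucleic acid), Dhx58, Slfn5 and Cxcl10. Their CPM over the 3 libraries ranged from 1.01 (Oasl1) to 24.6 (Ifitm3), with a median of 6.02, against a median of 41.3 for intermediate genes. Because a UMI marks the 3′ end of a transcript once, these levels can be set side by side without a correction for length. The order of the genes was close in the 3 libraries, as the plot of shares of cells shows.

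**Figure D1:**
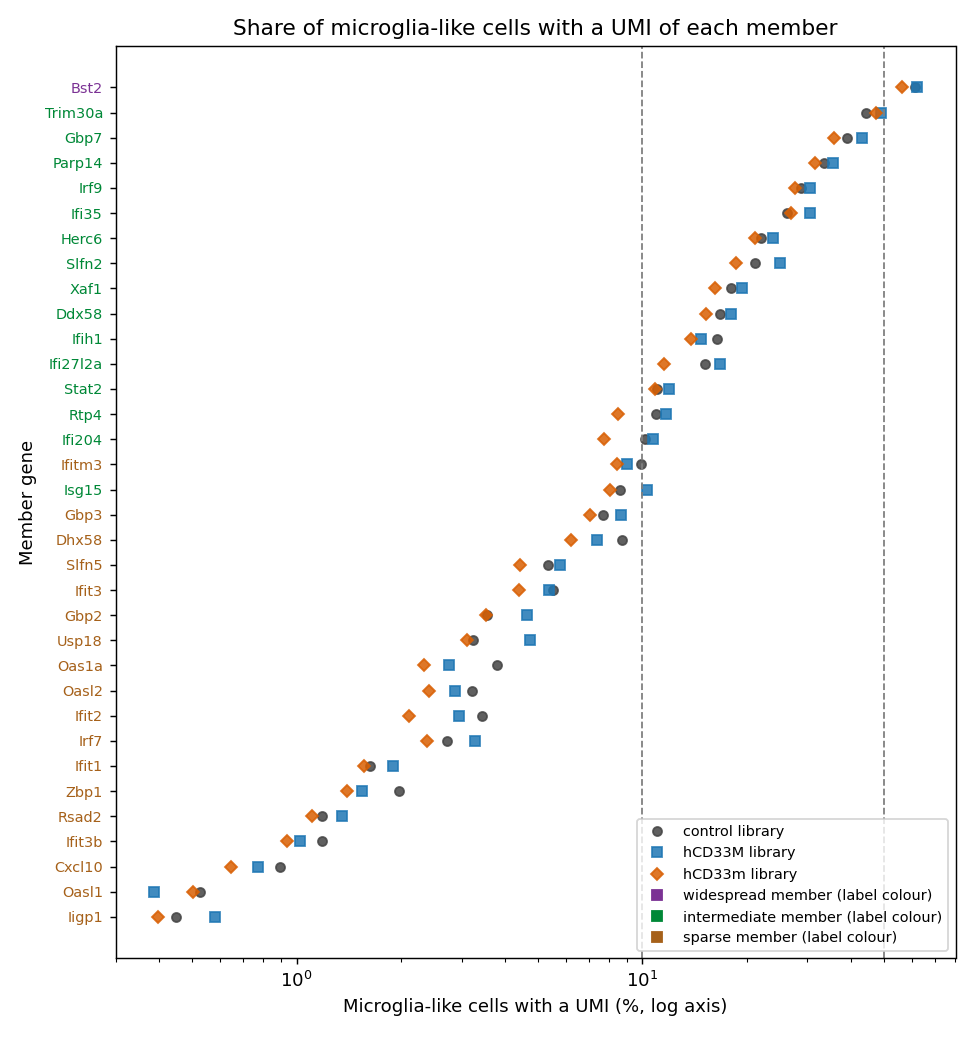
Percent of microglia-like cells with at least 1 UMI of each of the 34 genes (log axis) in the control, hCD33M and hCD33m libraries, with dashed lines at the limits of 10% and 50%. Bst2 alone lies above 50% in every library, and the points of a gene from the 3 libraries lie close together compared with the range over genes.

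Breadth depends on depth. When each cell was thinned to 1600 UMIs, Bst2 was in 23.05% of microglia-like cells, no gene passed 50%, and 30 of the 34 fell under 10%. The observed share of cells was therefore divided by the share expected if the UMIs of a gene fell on cells in proportion to their depth, where 1 means an even spread. Bst2 reached 0.940 and the intermediate genes had a median of 0.884, from 0.538 for Ifi27l2a to 0.999 for Ifi35. Irf9, Ifi35, Ifih1 and Ddx58 lay at or above 0.903, the 5th percentile of the 6045 genes of intermediate breadth, whose median was 0.960. Another 6 lay just under it, down to 0.863 for Gbp7, and Slfn2 (0.744), Rtp4 (0.717), Isg15 (0.688), Ifi204 (0.660) and Ifi27l2a lay further below.

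The sparse genes ranged from evenly spread to concentrated, with values in between. Gbp3 and Dhx58 (an RNA helicase that tunes RIG-I signalling) at 0.942, Oas1a at 0.929 and Gbp2 at 0.871 lay inside the range of the 4459 genes as sparse as they were, whose median was 0.961 and whose 5th percentile was 0.864. The sparse members as a whole had a median of 0.611. Cxcl10 had 0.175, Rsad2 0.471 and Ifit1 0.498, and so 3 of 18 sparse members lay under 0.5, against 25 of the 4459 sparse genes (0.561%). The 1% of cells with most UMIs of a gene held a median of 61.045% of the UMIs of sparse members, against 36.4% for sparse genes in general, and a median of 15.8% for intermediate members, against 11.9%. A gene in under 1% of cells has 100% by this measure, as Cxcl10, Iigp1 and Oasl1 did. Genes in general were not matched to the members by share of cells, so these medians alone do not show concentration.

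**Figure D2:**
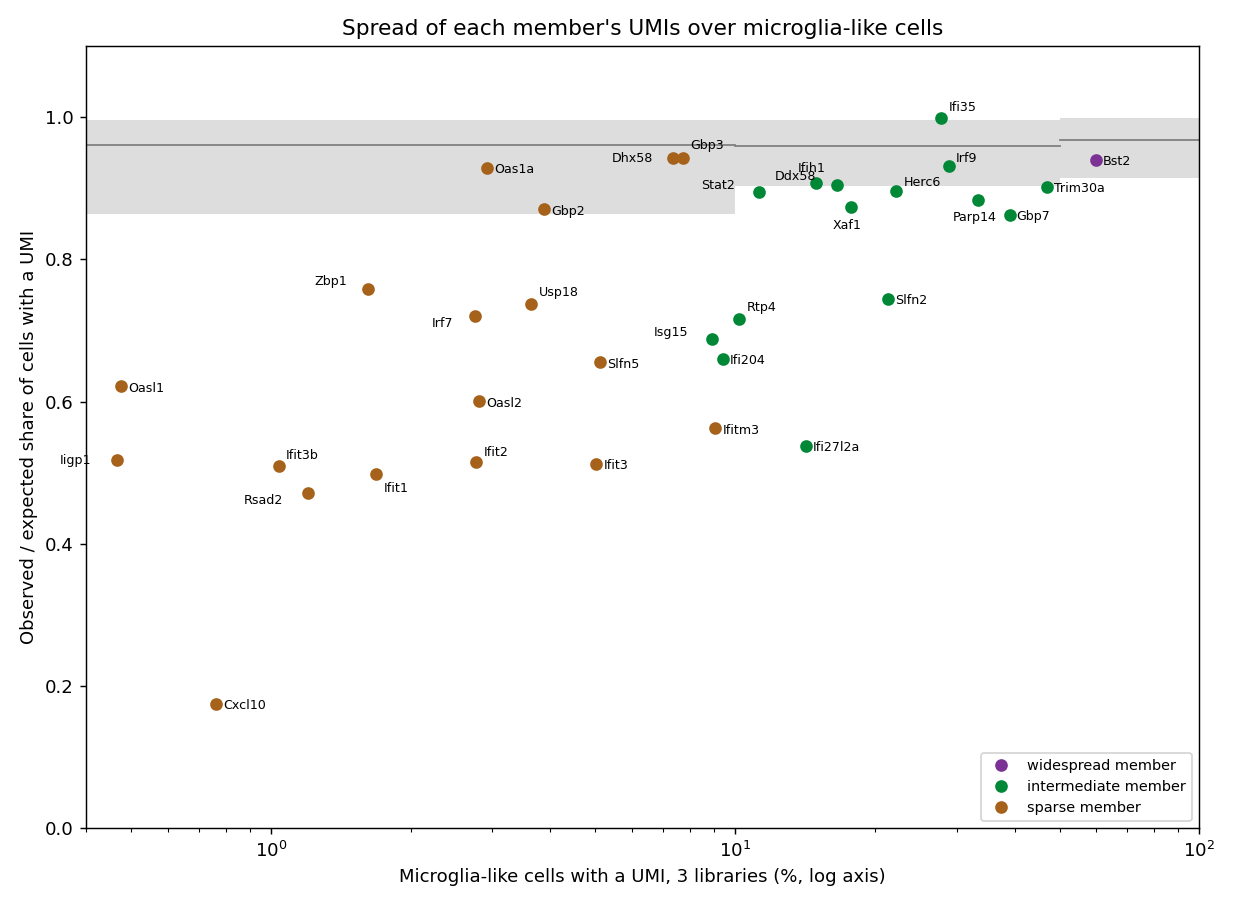
Observed over expected share of microglia-like cells with a UMI (1 means an even spread for the depth of each cell) against the percent of cells with a UMI (log axis), for each of the 34 genes over the 3 libraries, with the grey band giving the 5th to 95th percentile and the grey line the median of all genes of that breadth. Bst2, Irf9, Ifi35, Ifih1, Ddx58, Gbp3, Dhx58, Oas1a and Gbp2 lie in or above the band, and Cxcl10, at 0.175, lies farthest below it.

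Cxcl10, the chemokine that draws T cells through Cxcr3, had the strongest concentration of the 34 genes. In microglia-like cells it had 175 UMIs in 34 control cells, 85 UMIs in 28 hCD33M cells and 292 UMIs in 31 hCD33m cells. The cell with most held 32, 26 and 69 of them. The number of cells with a Cxcl10 UMI thus stayed between 28 and 34 while the UMIs differed more, and a few cells set the level of this gene in each library.

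To describe the cells that carried the sparse genes, every microglia-like cell of at least 1600 UMIs was thinned to 1600 UMIs, and a cell was called interferon-high if it then had a UMI of at least 3 of 7 index genes (Ifit1, Ifit2, Ifit3, Rsad2, Oasl1, Usp18 and Isg15). There were 14 such cells of 3739 in control (0.374%, Clopper-Pearson interval 0.205 to 0.627), 11 of 3586 in hCD33M (0.307%, 0.153 to 0.548) and 24 of 4738 in hCD33m (0.507%, 0.325 to 0.753). The share in hCD33m was 1.35 times that in control (interval 0.672 to 2.83) and 1.65 times that in hCD33M (0.779 to 3.73), and the share in hCD33M was 0.819 times that in control (0.337 to 1.94), so none of these differences exceeded counting error. The limit of 3 genes did not fall in a gap, since 35 of the 49 cells had 3 or 4 index genes, 14 had 5 or more, and a further 43 cells had 2. Interferon-high cells were of like depth to the others, with a median of 5702 UMIs against 5504.5.

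Most members outside the index were higher in these cells. A gene was called higher or lower if its CPM differed at least 1.5-fold in the same direction in all 3 libraries with an exact interval that left out 1, given at least 60 UMIs over the cells compared, and this gives no p because the cells were chosen from their own counts. By that rule 30 of the 34 members were higher and 0 lower, against 0.956% of all 11930 genes called higher and 0.0168% called lower. For the 7 index genes this is set by the choice of cells. Of the 27 others 23 were higher, with a median log2 ratio of 3.24 (4.07 over all 34, each gene taken at the middle of its 3 library ratios), and the 4 not called were Irf9, Gbp2, Gbp3 and Ifih1. Among the 23, Iigp1 reached 60 UMIs only through the interferon-high cells, so its call is no support for a difference.

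For the index genes themselves, cells were chosen by 3 of the other 6 genes. Ifit1 then had 404, 597 and 584 CPM in interferon-high cells of control, hCD33M and hCD33m, against 3.11, 3.08 and 3.19 CPM in the other microglia-like cells. Ifit3 had 1493, 2047 and 1289 CPM against 11.7, 10.6 and 10.8, and Ifit2 had 663, 975 and 717 CPM against 6.55, 4.62 and 3.68. Rsad2 had 381, 353 and 295 CPM against 2.35, 2.19 and 2.26. The ratios of the IFIT genes reached 211-fold (Ifit2, hCD33M), and the chosen cells lay above the others in every library. Oasl1, which in mice holds back translation of Irf7, had 72.2, 68.4 and 127 CPM against 0.615, 0.548 and 0.623. Within the ISG15 system, Isg15, the ubiquitin-like modifier, had 595, 1269.7 and 868 CPM against 16.6, 18.7 and 15.4, and Usp18 had 459.8, 220.1 and 290.2 CPM against 5.64, 6.98 and 4.70.

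Of the sparse members outside the index, Iigp1, an immunity-related GTPase, had 209, 173 and 93.2 CPM in interferon-high cells against 0.398, 0.788 and 0.567 CPM in the others. Cxcl10 had 449, 157 and 1095 CPM against 4.31, 2.57 and 1.62, Ifit3b had 305, 220.1 and 209.8 CPM against 2.17, 1.85 and 1.19, and Irf7, the master factor of the amplifying response, had 185, 236 and 149 CPM against 4.56, 5.07 and 3.94. Of the windows of 100 bases in the last 500 bases of Ifit3, 4.24% were also found in Ifit3b. This is a share of windows, not of bases, and some reads could have been split between the genes. Genes of broader expression had smaller ratios. Bst2 had 787, 1211 and 778 CPM against 178, 178 and 152, Trim30a had 441, 660.4 and 615 CPM against 109, 123 and 116, and Gbp7 was 2.26-fold to 2.81-fold higher. Irf9 stood apart from its partner Stat2, with 56.2, 142 and 97.9 CPM against 57.1, 56.1 and 52.0, while Stat2 had 225, 110.1 and 158 CPM against 17.6, 19.0 and 17.2. Gbp3 had 16.1, 0 and 37.3 CPM in interferon-high cells against 11.8, 12.6 and 10.6.

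**Figure D3:**
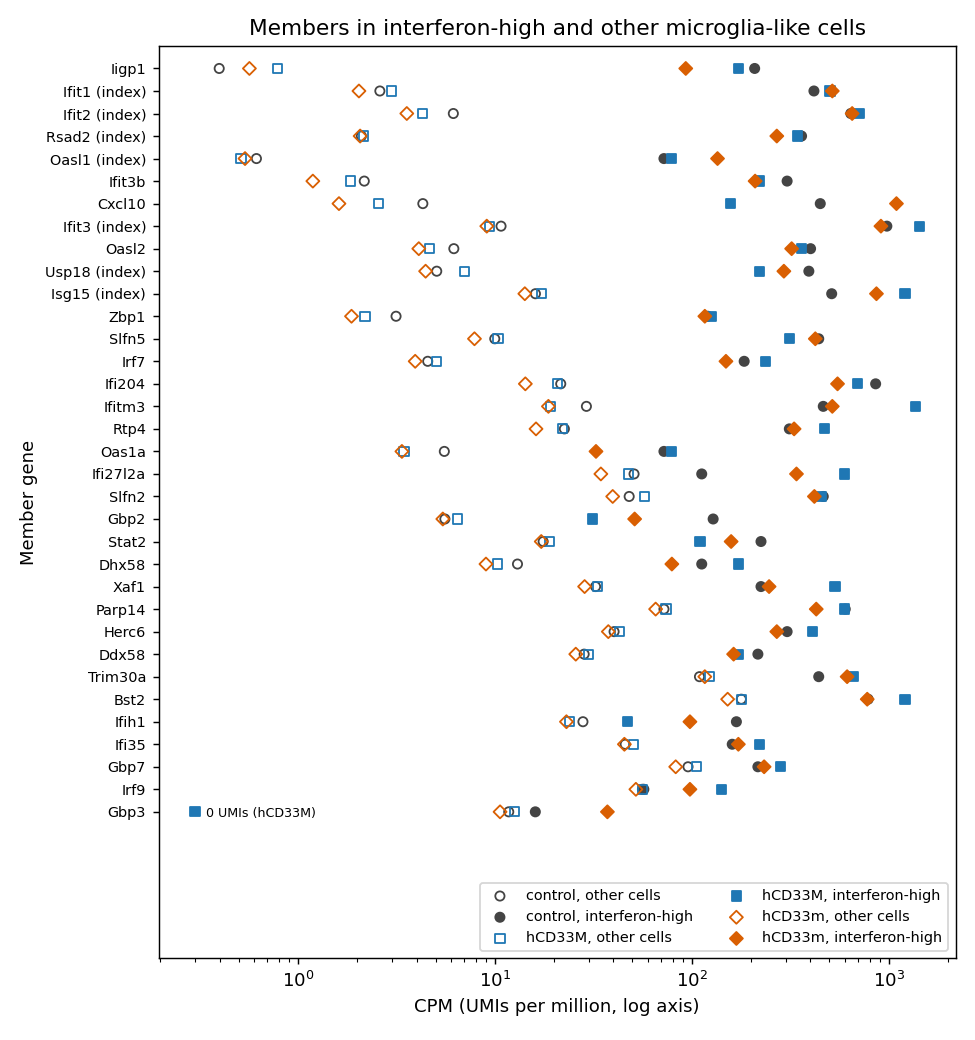
CPM (log axis) of the 34 genes in interferon-high cells (filled) and in the other microglia-like cells (open) of each library, ordered by their median ratio, with the 7 index genes that chose the cells marked and shown as chosen. Filled points lie to the right of open ones for every gene except Irf9 and Gbp3, at the bottom, where they overlap.

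How much of each gene came from these few cells differed between the groups, with overlap. Index genes, most of them sparse, were read in cells chosen by the other 6. Interferon-high cells were 0.406% of the cells and held a median of 19.96% of the UMIs of sparse members, from 0.928% for Gbp3 to 54.5% for Cxcl10, with 51.4% for Iigp1. They held a median of 3.07% for intermediate members, from 0.727% to 13.6%, which overlaps the sparse range, and 2.16% of Bst2 UMIs. Over the pooled libraries most positive cells lay outside, also for concentrated genes: of 609 cells with an Ifit3 UMI, 4.60% were interferon-high by the other 6 index genes, against 27.5% of the 91 cells with at least 3 Ifit3 UMIs. For Iigp1 36.8% of the 57 positive cells were interferon-high, but in hCD33m alone 57.9% of the Iigp1-positive cells were, and 54.2% of the Oasl1-positive cells by the other 6 genes.

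Genes for interferon receptors, kinases, sensors and factors upstream of the response were also read, and of 24 measured 2 were higher in these cells and 0 lower. The transcription factor gene Irf1 had 265, 204 and 139.8 CPM against 46.7, 46.4 and 46.3, and Mb21d1, which encodes the DNA sensor cGAS, had 112, 142 and 117 CPM against 48.6, 49.5 and 57.5. Interferon genes themselves were not analysed here. Of 77 measured genes on a longer list of other interferon-stimulated genes, 44 were higher and 0 lower, led by Ifi211, Ifi206, Gbp4 and Mx1. Gbp4 had 0.398, 0.651 and 0.538 CPM in the other cells and reached the minimum of UMIs only through the interferon-high cells. Its call, counted among the 44, and its rank below are therefore no support for a difference. Mx1, a dynamin-like GTPase that blocks influenza viruses, had 305, 345.9 and 279.7 CPM against 4.38, 3.87 and 3.20. Ranked by the lowest ratio over the libraries, the 10 genes outside the 34 that were most alike were Ifi206, Gbp4, Ifi211, Mx1, Ifi207, Ccl12, Cmpk2, Phf11a, Helz2 and Gm4951, and Gm4951, with 329, 345.9 and 205 CPM against 14.2, 19.0 and 11.4, was the only one not on that longer list. The chemokine gene Ccl12 was the most abundant of them, with 3475, 3176 and 3039 CPM against 159, 119 and 116.

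Interferon-high cells were unevenly placed among the 6 microglia-like clusters when the libraries were pooled. A cluster of 455 cells led by Ccl4, Lpl, Ccl3 and Apoe held 14 of the 49, which is 3.10% of its 452 cells deep enough (interval 1.70 to 5.14), while a cluster led by Khdrbs3 and Gm26669 held 3 of 3514 (0.0854%, 0.0176 to 0.249). By library the Ccl4 and Lpl cluster held 5 of 163 control cells, 1 of 76 hCD33M cells and 8 of 213 hCD33m cells as interferon-high, so in hCD33M it held only 1 of the 11. The Ccl4 and Lpl cluster made up 4.30%, 2.15% and 4.47% of the microglia-like cells of control, hCD33M and hCD33m. It had a lower level of P2ry12 (1809 CPM, against 3439 over all microglia-like cells) and 0.402 CPM of Ly6c2. Of macrophage markers, Ms4a7 had 50.3, 2.48 and 20.4 CPM there by library (27.8 pooled) and Pf4 had 7.02, 0 and 17.1 CPM. Mrc1 had 9.66 CPM pooled, against 9.88 over all microglia-like cells. Against the other microglia-like cells 13 of the 34 members were higher in this cluster and 0 lower. The background over all genes was 1.33% higher and 0.687% lower. The 13 were 8 of the 18 sparse genes, 5 of the 15 intermediate genes and not Bst2, which had 401, 261 and 261 CPM there. Cxcl10 had 80.7, 12.4 and 112 CPM in this cluster, against 0.412, 0.976 and 0.933 CPM in the Khdrbs3 cluster. When interferon-high cells were left out, 6 of the 13 were still higher (Ifi204, Ifi27l2a, Ifitm3, Isg15, Slfn2 and Slfn5), at a background of 1.22% and 0.637%. Ifi27l2a was 4.42-fold to 5.65-fold higher there without those cells, and Slfn2, a regulator of T cell quiescence, 2.17-fold to 2.45-fold higher.

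Border associated macrophage-like cells, the macrophages of meninges and vessels, carried more of many members than microglia-like cells did. Of the 34 genes 13 were higher and 0 lower, with a median log2 ratio of 1.03, against 2.38% of all genes higher and 0.25% lower and a median of -0.11. These were 8 sparse genes (Ifit3, Oasl2, Iigp1, Irf7, Usp18, Ifitm3, Zbp1 and Slfn5), 4 intermediate genes (Isg15, Ifi204, Ifi27l2a and Slfn2) and Bst2. Bst2 had 609.9, 494 and 406 CPM against 181, 181 and 156 in the microglia-like class. Ifitm3, which traps viruses in endosomes, had 391, 307 and 328 CPM against 31.1, 22.1 and 21.7, so that this gene, sparse in microglia, was 12.6-fold to 15.1-fold higher. Iigp1 had 30.5, 42.3 and 13.9 CPM against 1.33, 1.16 and 1.12, and the DNA-binding Ifi204 had 119, 139.6 and 95.8 CPM against 25.4, 22.2 and 17.5. The summed CPM of 9 microglial markers was 17276 to 18905 in these cells, against 26280 to 27956 in microglia-like cells, and its part was not tested. With interferon-high cells left out of both classes, 10 of the members were still called higher, and no share of all genes is given for that setting.

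Several members in border associated macrophage-like cells rested on 1 cell. All 124 Cxcl10 UMIs of the class came from a single hCD33M cell, so that Cxcl10 stood at 0, 194 and 0 CPM, and that class held 173 of its 180 hCD33M Rsad2 UMIs and 39 of its 41 hCD33M Ifit1 UMIs in the cell with most. Interferon-high cells were 5 of 197 cells deep enough, namely 0 of 53, 2 of 44 and 3 of 100 by library. None of Ifit1, Ifit2, Rsad2, Oasl1 or Cxcl10 was called higher in all 3 libraries.

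From the longer list, 18 of 80 measured genes were higher in border associated macrophage-like cells and 0 lower, while 0 of 24 pathway genes were called. The largest ratios were those of Ifi203 and its neighbour Mndal. Ifi203 had 147, 119 and 139 CPM against 0, 0.0682 and 0.225, and with 0 UMIs in control microglia-like cells it had no ratio there. Mndal had 102, 102 and 103 CPM against 0.108, 0.102 and 0.253. At these microglial levels both genes reached the minimum of UMIs only through the class in which they were high. Their calls, counted among the 18, are therefore no support for a difference. Ifitm2 had 239, 141 and 149.8 CPM against 2.26, 2.66 and 2.64, and Ifi211 had 47.4, 61.2 and 32.8 CPM against 2.05, 0.716 and 0.843.

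Monocyte-like cells differed in another set of members. Of the 34 genes 11 were higher and 1 lower, against 5.91% of all genes higher and 7.83% lower. Ifitm3 had 3921, 2759 and 4139.6 CPM, which is 125-fold to 190.5-fold over microglia-like cells, and Ifi27l2a, a gene for a small interferon-induced protein, had 2169, 1846 and 1723 CPM, 37.9-fold to 47.4-fold over them. Slfn2 had 592, 477 and 653 CPM against 49.96, 58.5 and 41.9, and Slfn5 had 221, 229 and 244 CPM against 11.9, 11.02 and 10.4. The other higher genes were Oasl2, Ifi204, Irf7, Stat2, Rtp4, Zbp1 and Oas1a. Gbp7 was the lower one, with 44.9, 59.2 and 44.1 CPM against 96.1, 106 and 83.7. None of the 7 index genes was called, Iigp1 had 0 UMIs in all 3 libraries, and Bst2 had 245, 189 and 188 CPM, close to its microglial level.

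The median log2 ratio over the 34 genes in monocyte-like cells was 1.56, or 1.65 with genes at 0 placed at a floor of 3 counts per library, against -0.65 and -0.13 for all genes. The class had 20, 23 and 41 cells, of which 2 of the 83 deep enough were interferon-high. The summed CPM of 9 microglial markers in it was 3321, 10711 and 2987 in control, hCD33M and hCD33m. In microglia-like cells that sum was 26280 to 27956, and its part in the values of this class was not tested. In each library 1 of these cells carried neutrophil granule genes, and without those cells the same 12 members were called. Without interferon-high cells 10 were higher and 1 lower, and no share of all genes is given for that setting. Of 80 other interferon-stimulated genes 20 were higher, with the largest ratios for Ifi203, Mndal, Slfn1 and Ifitm2, and 3 lower. Ifi203 and Mndal again reached the minimum of UMIs only through the class in which they were high. The calls of these genes, counted among the 20, are therefore no support for a difference. Ifitm2 had 1225, 962 and 1076 CPM against 2.26, 2.66 and 2.64. The lower genes were Ccl12 (4.08, 33.3 and 17.6 CPM against 175, 125 and 134), Lgals9 (81.7, 88.8 and 64.7 CPM against 187, 165 and 188) and Apobec3 (77.6, 104 and 88.2 CPM against 179.6, 162 and 151). Of 24 pathway genes 2 were lower, the RNA receptor gene Tlr3 (12.3, 44.4 and 5.88 CPM against 107, 113 and 97.5) and Tmem173, which encodes STING (65.4, 163 and 132 CPM against 415, 451 and 402).

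**Figure D4:**
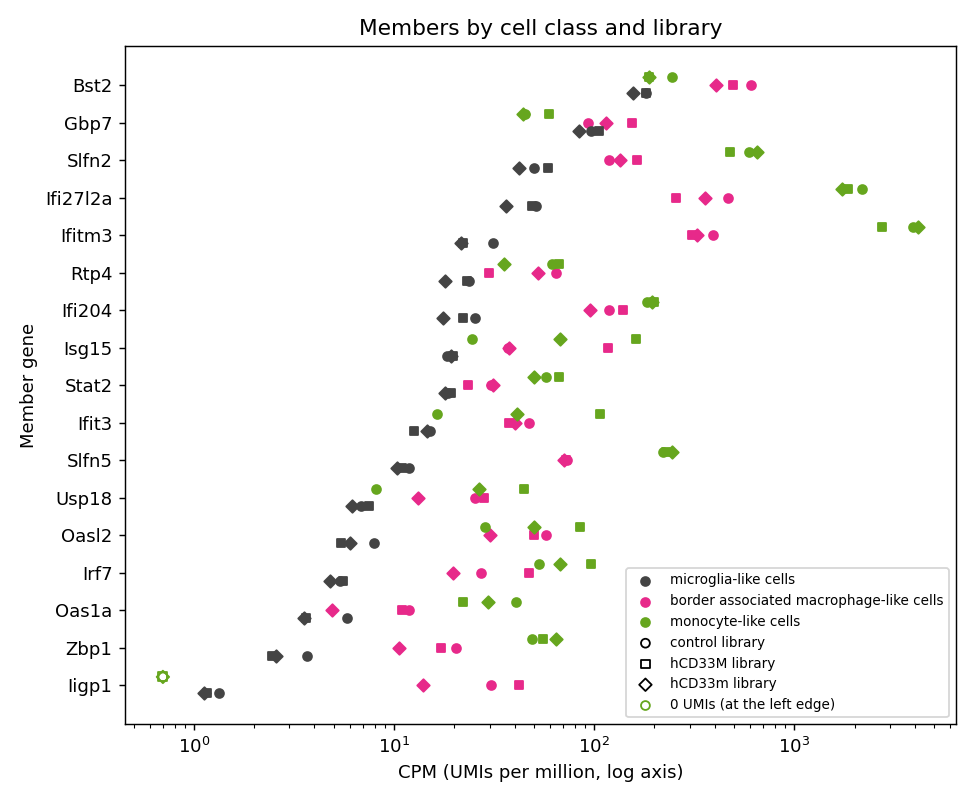
CPM (log axis) in the microglia-like, monocyte-like and border associated macrophage-like class of each library, for the members called higher or lower in either of the latter classes. Ifitm3, Ifi27l2a, Slfn2 and Slfn5 lie highest in monocyte-like cells, Bst2 and Iigp1 lie highest in border associated macrophage-like cells, and Gbp7 is lower in monocyte-like cells.

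Between the libraries, most members differed by less than 1.5-fold in microglia-like cells. A ratio was called at 1.5-fold or more with an exact interval that left out 1 and at least 60 UMIs over the pair of libraries. The comparisons of hCD33m and of hCD33M with control share the control library. In hCD33m against control 0 of 34 members were higher and 1 lower, against 2.26% and 2.24% of all genes. The median log2 ratio was -0.16, against -0.00 for all genes, and 5 of 34 members lay above 0, against 5710 of all 11524 genes. Oas1a, an enzyme whose product activates the ribonuclease RNase L, was the gene called, with 3.54 CPM in hCD33m against 5.82 in control, a log2 ratio of -0.72 (interval -1.06 to -0.37). Of the windows of 100 bases in the last 500 bases of Oas1a, 40.9% were also found in Oas1g, a share of windows and not of bases. Oas1g had 0.359, 0.444 and 0.225 CPM in control, hCD33M and hCD33m, and the split of reads between Oas1a and Oas1g is uncertain. Larger genes moved by less: Bst2 differed by -0.22 (-0.27 to -0.16), Ifi27l2a by -0.49 (-0.60 to -0.38), Ifi204 by -0.53 (-0.69 to -0.38), Ifitm3 by -0.51 (-0.66 to -0.37), and Trim30a by 0.11 (0.04 to 0.17). When interferon-high cells were left out, 8 members were lower in hCD33m and 0 higher, against 2.34% and 2.28% of all genes: Ifit2 (-0.78), Ifit3b (-0.83), Cxcl10 (-1.41), Oasl2 (-0.59), Ifi204 (-0.60), Ifitm3 (-0.64), Zbp1 (-0.73) and Oas1a (-0.71). The cells left out were chosen by members' own counts and were 24 in hCD33m against 14 in control, and they held 80.5% of the Cxcl10 UMIs of hCD33m against 32.0% of those of control, so their removal itself lowers hCD33m more than control for such genes.

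In hCD33M against control 0 of 33 measured members were higher and 4 lower, against 1.63% and 1.93% of all genes, and the median log2 ratio was -0.04. All 4 were sparse genes. Cxcl10 had 2.90 against 6.29 CPM, a log2 ratio of -1.12 (-1.51 to -0.74). It turned to 0.12 when cells of at least 1000 UMIs were clustered anew and to 0.19 when cells of all classes were kept. The latter include the hCD33M border associated macrophage-like cell that held all Cxcl10 UMIs of that class, and its part was not tested. Cxcl10 was not called with the narrow filter of over 500 to 4000 genes and up to 5% mitochondrial UMIs (-0.67), at resolution 0.4 (-0.40) or with interferon genes kept for clustering (-0.02). Ifit2 had 5.80 against 9.02 CPM (-0.64), Ifit3b 2.32 against 3.52 CPM (-0.60) and Oas1a 3.62 against 5.82 CPM (-0.69, -1.05 to -0.33). Without interferon-high cells Ifit2 (-0.53) and Ifit3b (-0.23) were no longer called, while Ifitm3 was (-0.60), and all genes were called lower at 1.91% and higher at 1.59%. Ifit2 and Ifit3b also lost the call with the narrow filter (-0.27 and -0.24), at resolution 0.4 (-0.35 and -0.19), with at least 1000 UMIs, with all cells kept, with means over cells and with interferon genes kept. Oas1a lost it with means over cells (-0.57) and a fold of 2. The setting of at least 1000 UMIs changed the clusters as well as the depth. In microglia-like cells of at least 1600 UMIs, with the clusters kept, the same 4 genes were called lower, Cxcl10 at -1.12. The 15 intermediate genes had a median of 0.05, and 10 of them lay above 0, against 6014 of all 11403 genes.

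In hCD33m against hCD33M 2 of 34 members were higher and 0 lower, against 1.8% and 1.3% of all genes, and the median log2 ratio was -0.10. Cxcl10 had 8.21 against 2.90 CPM, a log2 ratio of 1.501 (1.15 to 1.87). The call was lost with cells of all classes kept (0.19), which adds the same border associated macrophage-like hCD33M cell. It was also lost with at least 1000 UMIs, where the cells were clustered anew (0.20), and with interferon genes kept for clustering (0.23). In microglia-like cells of at least 1600 UMIs, with the clusters kept, Cxcl10 was at 1.502 and still called higher. Without interferon-high cells it was -0.67 and called lower, as Usp18 was (-0.66), against 1.33% of all genes lower and 1.82% higher, so the direction turned on those cells, which held 80.5% of its hCD33m UMIs and 11.8% of its hCD33M UMIs. Oasl1 had 48 and 20 UMIs and so passed the minimum of 60 only through the library in which it was high, which means that its call is no support for a difference of the members. It had 1.35 against 0.682 CPM (0.98, 0.20 to 1.81) and was not called with at least 1000 UMIs, with all cells kept, with means over cells, with interferon genes kept, without the cell with most of its UMIs (0.92) or without interferon-high cells (0.07). All 15 intermediate genes lay below 0, with a median of -0.16, among them Slfn2 with 41.9 against 58.5 CPM (-0.48, -0.58 to -0.38) and Gbp7 with 83.7 against 106 CPM (-0.34, -0.41 to -0.26), all under the limit of 1.5-fold. Of all 11531 genes, 5546 lay above 0. Bst2 differed by -0.21.

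**Figure D5:**
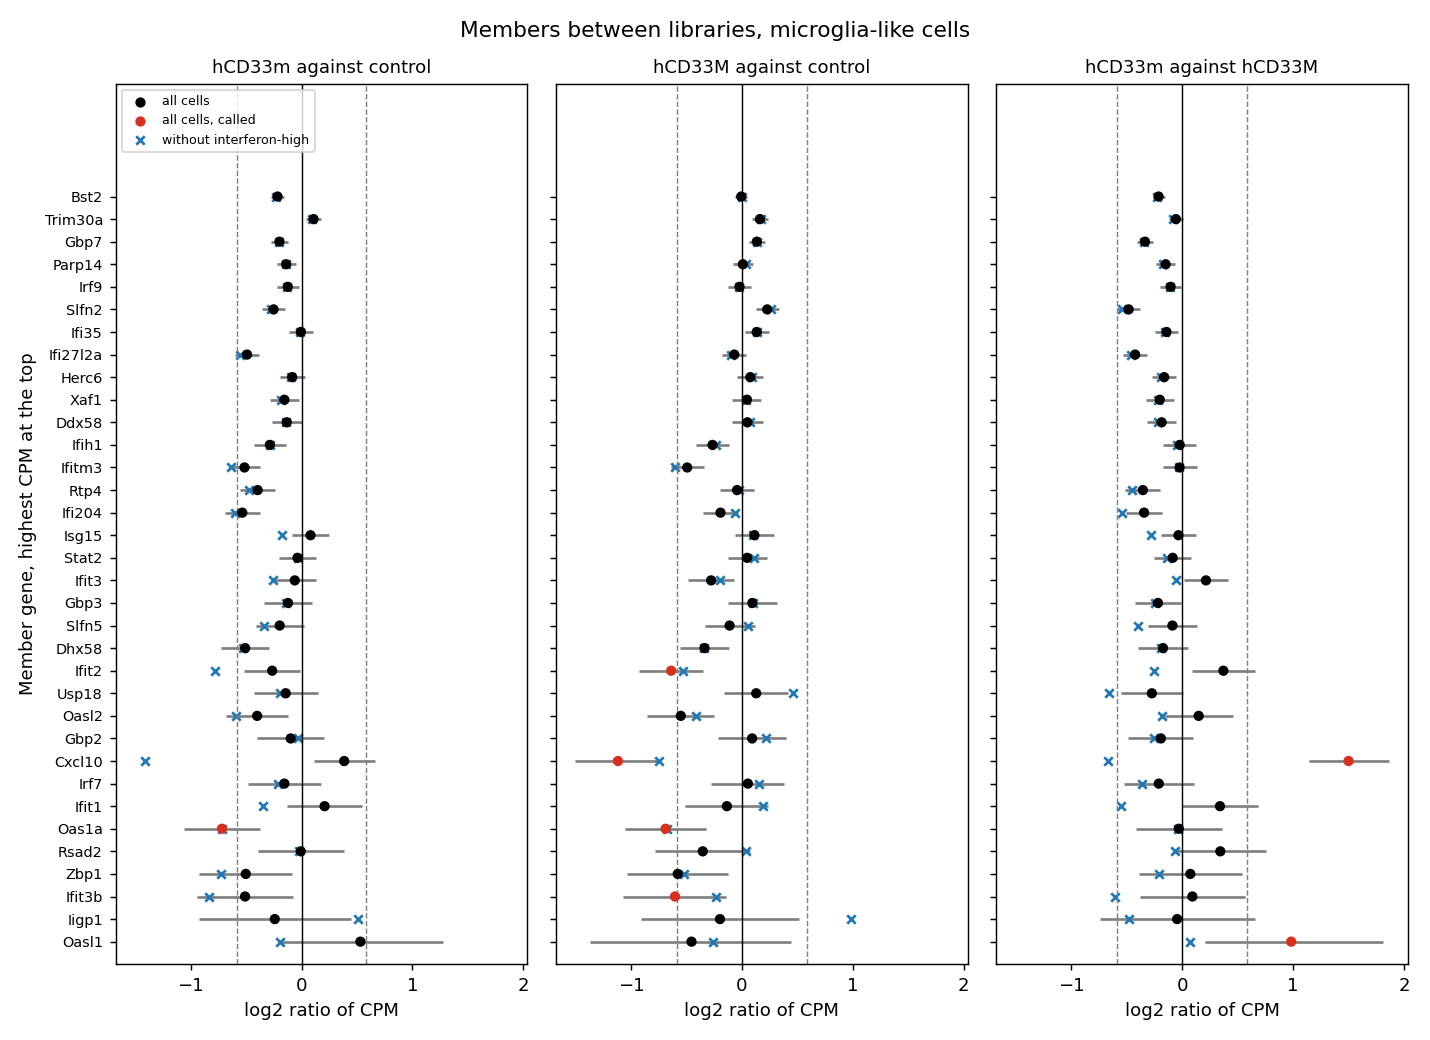
Log2 ratio of CPM between libraries in microglia-like cells for the 34 genes, ordered by level, with 95% counting intervals (bars), called genes in red and the ratio without interferon-high cells as crosses, and dashed lines at 1.5-fold. Broad genes at the top lie within the dashed lines with crosses on their points, and Cxcl10 turns from 1.501 to -0.67 in hCD33m against hCD33M.

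Other interferon genes gave a like picture between libraries. Of 72 measured in hCD33m against control 0 were higher and 3 lower, against 2.26% and 2.24% of all genes. The 3 were Samd9l (-0.62), Phf11a (-0.90) and Ifi211 (-1.28 on the log2 scale). Of 73 in hCD33M against control 0 were higher and 4 lower, against 1.63% and 1.93% of all genes. The 4 were Ifi47 (-1.36), Phf11a (-1.05), Ifi211 (-1.52) and Ifi213 (-1.20). In both comparisons Phf11a and Ifi211 reached the minimum of UMIs only through control, the library in which they were high. Their calls, counted among the 3 and the 4, are therefore no support for a difference. Of 71 in hCD33m against hCD33M, Ifi213 was higher (0.99) and Ly6a lower (-0.79), against 1.8% and 1.3% of all genes. No pathway gene of 24 was called in any of the 3 comparisons.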

How the data were processed

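Single-cell RNA sequencing (10x Chromium 3′) was available for 3 libraries. The authors aligned reads to mm10 with Cell Ranger and deposited raw UMI counts per gene and cell, after import into Seurat that kept cells of over 200 genes, and genes that 3 cells or more expressed. Cells with over 8000 genes or over 10% mitochondrial UMIs were then removed, which left more cells than the study states for the same limits, and no doublet caller was run. Counts of mouse genes do not cover the human CD33 transgenes. The members, lists and rules were chosen with earlier results of these data known.

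Counts were clustered in Python 3.11.15 with scikit-learn 1.9.0, scanpy 1.11.5 and igraph 0.11.9 (2000 variable genes without the interferon lists, 15 components, 20 neighbours, resolution 0.8). A cluster was named from at least 3 listed markers, and its 10 leading genes had to be found in at least 25% of its cells, a limit chosen after the data were seen. UMIs were summed over the cells of a class and library and scaled to CPM, with exact Poisson intervals for levels, conditional binomial intervals for ratios and Clopper-Pearson intervals for shares (numpy 2.4.6, scipy 1.17.1, pandas 2.3.3). Cells were thinned to 1600 UMIs with a fixed seed. Named genes were every widespread and index gene, members called in a comparison, the 5 most concentrated members and, from the lists of 96 other interferon genes (91 with a row) and 33 pathway genes (26 with a row), the 4 with the largest ratio in each direction among those called. Other genes printed here were chosen after their values were seen. Ratios were tested on simulated Poisson counts, in which UMIs were drawn independently. UMIs gathered in few cells, as for Cxcl10, were not simulated for ratios, so the intervals of such genes can be too narrow. The 19 planned and 5 added alternatives covered filters, scaling (TMM from edgeR 4.0.16), thresholds, thinning and clustering. Promoter windows came from RefSeq for GRCm38.p6, the assembly of mm10. Figures were drawn with matplotlib 3.10.9. The values of 1 pathway gene are not reported here, and the counts leave it out.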

Additional observations from a re-analysis of the deposited data

Results flagged for a closer look

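Cxcl10 moved in opposite directions by library in border associated macrophage-like against microglia-like cells. The log2 ratio was 6.07 in hCD33M, where 1 cell held all 124 UMIs of the class. It was at most -0.31 in control and at most -1.74 in hCD33m, where the class had 0 UMIs and a floor of 3 counts per library was used. The difference between the libraries was not tested.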

How the results depend on the processing

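For the counts below, no share of all genes is given for the alternatives, except between libraries without interferon-high cells. A changed count therefore cannot be told apart from a shift over all genes. The count of members called in hCD33m against control (1) became 7 with cells of over 500 to 4000 genes and up to 5% mitochondrial UMIs (the narrow filter), 2 with means over cells (1 higher and 1 lower), 8 without interferon-high cells, and 0 with a minimum of 20 CPM or a fold of 2. In hCD33M against control (4) it became 1 with the narrow filter, means over cells, a fold of 2 or resolution 0.4, 2 with all cells kept or interferon genes kept among the variable genes (1 higher and 1 lower in each), and 0 with 20 CPM. With at least 1000 UMIs 1 was higher and 2 lower, with 1 gene in common with the 4. In hCD33m against hCD33M (2, both higher) it became 1 higher with a fold of 2, resolution 0.4 or without the top cell of each gene, and 0 with 20 CPM. With at least 1000 UMIs, all cells kept or interferon genes kept it became 1, lower and not among the 2. The narrow filter gave 2, both lower and not among the 2. In hCD33M against control Cxcl10 reversed to 0.12 (at least 1000 UMIs, clustered anew) and 0.19 (all cells kept, of every class). In hCD33m against hCD33M it reversed to -0.67 (without interferon-high cells). Interferon-high shares of control, hCD33M and hCD33m were 0.856%, 0.613% and 0.802% with 2 index genes, 0.187%, 0.139% and 0.274% with 4, and 1.42%, 1.68% and 1.46% without thinning. They were 0.212%, 0.194% and 0.230% thinned to 1000 UMIs, and 0.276%, 0.385% and 0.294% with the narrow filter. The library with the highest share was control with 2 index genes and hCD33M without thinning and with the narrow filter. Thinning to 1600 UMIs left 0 widespread and 30 sparse members and raised the median share of sparse members' UMIs in the top 1% of cells to 100%, and keeping all cells left 0 widespread. Members sparse before thinning were then in a median of 0.779% of cells, and a gene in under 1% of cells has 100% by this measure. Of the values for single members, 1494 stayed on their side of the call (90 of these changed sign), 20 gained a call, 30 lost one and 3 called values reversed, and the causes were not tested. Called members numbered 10 to 16 for border associated macrophage-like cells (13 as reported) and 10 to 12 for monocyte-like cells (12 as reported) under the alternatives run. Neither class formed at resolution 0.4, and no monocyte-like class formed with at least 1000 UMIs, where the border associated macrophage-like cluster of 291 cells also had monocyte markers among its leading genes and its count was 16. The alternatives with all cells of at least 1600 UMIs, with unnamed cells added, without the top cell of each gene, without interferon-high cells in the class comparisons and without cells of neutrophil genes were chosen after seeing the data. No paired analysis was possible because each genotype had 1 library and no replicate numbers were shared, so no replicate could be left out either. Depth limits the sparse genes, whose shares of cells rose with UMIs per cell.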
